A study of Mus musculus with 5 samples.

Results

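The genes examined here were 10 target and modulator genes of the NOTCH pathway, *Rbpj*, *Maml1*, *Hes1*, *Hey1*, *Hey2*, *Heyl*, *Nrarp*, *Dtx1*, *Lfng* and *Mfng*, among 55397 genes measured by bulk RNA-seq in mouse liver tumors. They were picked by name for their roles in the pathway, by a rule that uses no measured value but was written with earlier results of these data known. The tumors were made by hydrodynamic tail vein injection (HDTVI), which delivers plasmids in a rapid, large-volume injection to hepatocytes. The comparison asked how these genes stood in tumors that overexpressed *Prox1* (*Prox1* OE, n = 3 libraries) against tumors that did not (Control, n = 2 libraries).

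Both groups were female C57BL/6N mice injected at 8 weeks of age by the methods of the study, whose reporting summary lists an older age. All received the CMV-Sleeping Beauty transposase (4 µg) and transposons (10 µg) that express Akt (pT3-EF1a-AKT) and the NOTCH1 intracellular domain, NICD (pT3-EF1a-NICD-IRES-rtTA). The EF1a promoter is active in most cell types, and it drives NICD without ligand or receptor cleavage. The same NICD transcript encodes rtTA, the protein that switches on Tre promoters when doxycycline is present. *Prox1* OE tumors also received pT3-Tre-FLAG-mmProx1-IRES-GFP and Control tumors pT3-Tre-IRES-GFP. Both groups ate 6.25% doxycycline food from day 21, for overexpression from week 3 to week 4. Tumors were taken a week into overexpression or at a humane endpoint, and which applied to which tumor was not given. The study describes its tumor RNA-seq as coming from mice, but the labels tie no library to an animal, and p-values measure the spread between these libraries.

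NOTCH signaling begins when a ligand on one cell binds a NOTCH receptor on its neighbor and the receptor is cut to free its intracellular domain. This domain enters the nucleus and joins the DNA-binding protein RBPJ and a Mastermind coactivator, which together turn on target genes such as those of the HES and HEY repressors and the feedback inhibitor NRARP. In liver, the pathway is known for directing progenitors and, when forced on, hepatocytes toward a bile duct fate.

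Libraries held 48740863 to 56629477 reads, and the 10 most abundant genes held 9.37% to 10.1% of each Control library and 13.2% to 15.1% of each *Prox1* OE library. *Prox1* itself, given first as a check of the labels, stood at 4153 and 4664 normalized counts in Control replicates 1 and 2 and at 48090, 11113 and 8231 in *Prox1* OE replicates 1, 2 and 3. All 3 *Prox1* OE values lay above both Control values. The log2 fold change of *Prox1* was 1.90 (SE 0.66, limma adjusted p = 0.061), and without *Prox1* OE replicate 1 it was 1.12 (adjusted p = 0.0056). With each library left out in turn it ranged from 1.12 to 2.39, and *Prox1* did not pass the test in every such fit. The labels call the tissue a tumor of transformed hepatocytes, and both hepatocyte and bile duct markers were expressed in every library. The 8 hepatocyte markers (*Alb*, *Ttr*, *Apoa1*, *Cps1*, *Hnf4a*, *Serpina1a*, *Ass1* and *Fga*) summed to 714644 and 1166830 normalized counts in Control and to 2366170 to 3694980 in *Prox1* OE. *Alb* alone held 480678 and 798691 of the Control sums. Of the 8 markers, 7 were called higher. Of these 7 calls only that of *Ass1* was kept in every fit that left out 1 library. The 6 bile duct markers (*Krt19*, *Krt7*, *Epcam*, *Spp1*, *Cftr* and *Cldn4*) summed to 740188 and 810418 in Control and to 516425 to 698222 in *Prox1* OE, and 5 of 6 were called lower, 3 of them (*Krt19*, *Krt7* and *Cftr*) in every such fit. Nearly all of that sum was *Spp1*, the marker not called. The other 5 bile duct markers summed to 25669 and 28178 in Control and to 7107 to 9397 in *Prox1* OE, and the median log2 fold change of the 6 was -2.16.

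Of the 10 genes, 6 fell in *Prox1* OE tumors and 0 rose. The 6 were *Nrarp*, *Hey2*, *Dtx1*, *Heyl*, *Rbpj* and *Maml1*, with mean levels between 40.7% (*Nrarp*) and 70.6% (*Maml1*) of the Control mean. *Hes1*, *Hey1*, *Lfng* and *Mfng* did not pass the test. A gene was called when its adjusted p in limma, over all 17105 genes with a mean normalized count of at least 10, was under 0.05. Among all genes tested, 16.2% were called lower and 17.1% higher, against 6 and 0 of the 10 members. The median log2 fold change of the members was -0.63, and that of all genes tested was -0.02. The same 6 members had every *Prox1* OE value below both Control values, and 0 members had every value above, whereas 32.4% of all genes tested lay wholly below and 30.9% wholly above.

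The calls rested on few libraries. edgeR and DESeq2 on the recovered reads also called 6 members lower and 0 higher, and at an unadjusted p under 0.05 limma gave 6 lower and 0 higher. Without Control replicate 1 the limma count of members called lower was 0, with 5 lower at an unadjusted p under 0.05, while 2.79% of all genes were called lower. Without Control replicate 2 it was again 0, with 5 lower unadjusted and 4.88% of all genes called lower. Without *Prox1* OE replicate 2 it was 0, with 7 lower and 1 higher (*Lfng*) unadjusted, below the 10.2% of all genes called lower in that fit. Without *Prox1* OE replicate 1 it was 6, and without *Prox1* OE replicate 3 it was 4, with *Hey2* and *Maml1* lost, beside 21.9% and 11.3% of all genes. Without the mean-variance trend of limma the count was 1 (*Rbpj*), near the 11.3% of all genes called lower, and without the filter on low counts it was 4, with *Dtx1* and *Hey2* lost, beside 7.95%. All 6 kept a negative log2 fold change in each of these fits. The split of calls over all genes also moved with the scaling, from 2933 higher and 2769 lower to 1472 higher and 6855 lower when libraries were scaled by their total counts. That scaling moved the median log2 fold change over all genes to -0.45, and the median of the members to -1.06.

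**Figure D1:**
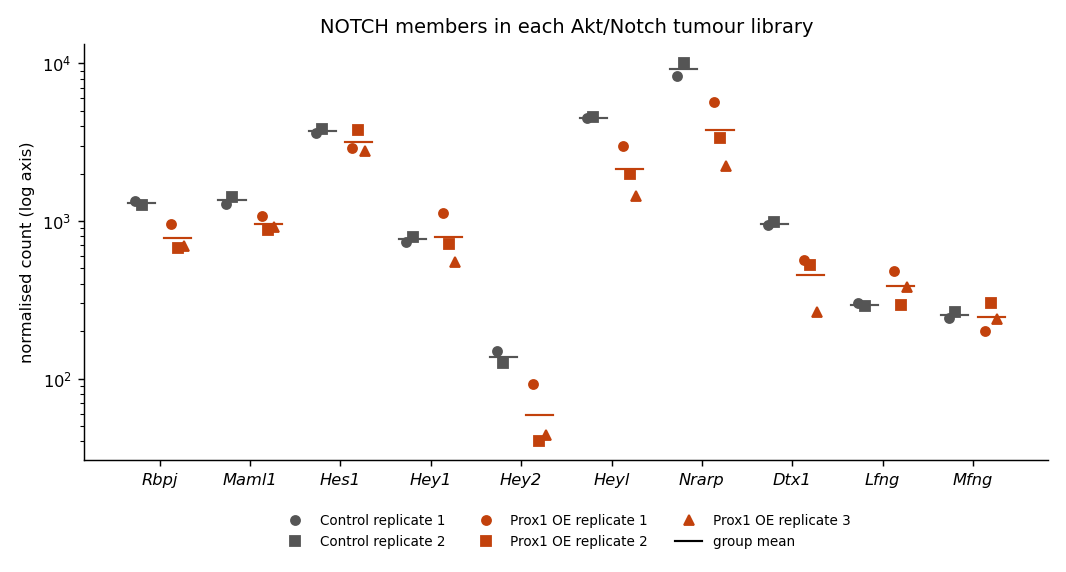
Normalized counts (log axis) of the 10 NOTCH genes in each library, with Control replicates in grey, *Prox1* OE replicates in orange, and a horizontal line at each group mean. For *Rbpj*, *Maml1*, *Hey2*, *Heyl*, *Nrarp* and *Dtx1* all 3 orange points lie below both grey points, and for the other genes the groups overlap.

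The sequences upstream of these genes are shown because RBPJ binds DNA through the core TGGGAA and HES and HEY proteins bind E-box sequences such as CACGTG and the related CACGCG. RefSeq windows of GRCm38.p6 (the sequence of mm10), from 250 bases before to 50 bases after a transcription start, were available for *Rbpj*, *Maml1*, *Hey2*, *Nrarp*, *Dtx1* and *Lfng* (6 of 10 genes, 7 windows, 2 of them for *Rbpj*). *Hes1*, *Hey1*, *Heyl* and *Mfng* had none. Windows are printed 5′ to 3′ on the strand of the gene up to 6 bases after the start, with TGGGAA, its reverse complement TTCCCA and CACGTG in capitals and CACGCG left in lower case. *Hey2* is at chr10:30842778-30843033 on the minus strand, *Nrarp* at chr2:25180508-25180763 on the plus strand, *Rbpj* at chr5:53590096-53590351 on the plus strand, inside the annotated gene, and *Lfng* at chr5:140607091-140607346 on the plus strand.
Hey2: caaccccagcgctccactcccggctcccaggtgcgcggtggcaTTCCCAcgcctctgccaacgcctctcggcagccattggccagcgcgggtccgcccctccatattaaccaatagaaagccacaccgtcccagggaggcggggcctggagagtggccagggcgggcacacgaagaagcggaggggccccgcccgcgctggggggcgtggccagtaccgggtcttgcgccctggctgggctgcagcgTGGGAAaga
Nrarp: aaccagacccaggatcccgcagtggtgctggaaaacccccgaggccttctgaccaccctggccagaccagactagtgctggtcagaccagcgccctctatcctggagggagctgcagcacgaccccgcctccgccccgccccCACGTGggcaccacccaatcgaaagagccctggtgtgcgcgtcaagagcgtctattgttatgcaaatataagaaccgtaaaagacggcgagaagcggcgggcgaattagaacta
Rbpj: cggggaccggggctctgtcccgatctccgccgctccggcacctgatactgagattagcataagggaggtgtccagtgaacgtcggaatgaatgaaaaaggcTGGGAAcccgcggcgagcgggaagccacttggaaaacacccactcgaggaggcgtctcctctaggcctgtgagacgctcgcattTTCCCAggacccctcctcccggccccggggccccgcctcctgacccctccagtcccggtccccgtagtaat
Lfng: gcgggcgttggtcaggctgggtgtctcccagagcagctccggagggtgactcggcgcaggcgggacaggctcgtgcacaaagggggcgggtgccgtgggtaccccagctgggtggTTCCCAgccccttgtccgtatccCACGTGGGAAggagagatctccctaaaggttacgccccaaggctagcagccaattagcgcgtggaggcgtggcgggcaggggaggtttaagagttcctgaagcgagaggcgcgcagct
Among the 3 genes shown that fell, *Hey2* held TTCCCA 207 bases and TGGGAA 3 bases before the start, *Rbpj* held TGGGAA at 149 and TTCCCA at 65 bases before it, and *Nrarp* held only CACGTG, at 108 bases. *Lfng*, which was not called, held TTCCCA at 135 bases, CACGTG at 112 bases and, overlapping it, TGGGAA at 108 bases. Neither TGGGAA nor CACGTG was in the windows of *Dtx1* or *Maml1*. CACGCG, as its reverse complement CGCGTG, was in the windows of *Dtx1*, 77 bases before the start, and *Lfng*, 55 bases before it. On either strand TGGGAA was in 25.6%, CACGTG in 7.15% and CACGCG in 9.27% of the 32851 windows of all genes, so a match is a description of the letters and not of binding.

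The transcription complex was lower at both of its members. *Rbpj*, on chromosome 5 (53466152 to 53657362), encodes the DNA-binding factor that all NOTCH receptors share. It was at 1333 and 1266 normalized counts in Control replicates 1 and 2 and at 963, 678 and 697 in *Prox1* OE replicates 1, 2 and 3. The groups did not overlap, and replicate 1 was the highest of the *Prox1* OE libraries. *Rbpj* fell by 0.76 on the log2 scale (SE 0.18, 95% interval -1.17 to -0.34, adjusted p = 0.017), and this change ranged from -0.92 to -0.66 with 1 library left out. *Maml1*, on chromosome 11 (50255634 to 50292311), encodes the coactivator that locks NICD onto RBPJ. Its values were 1287 and 1427 in Control and 1078, 880 and 914 in *Prox1* OE, again without overlap. *Maml1* had the smallest log2 fold change of the 6, at -0.51 (SE 0.14, interval -0.83 to -0.18, adjusted p = 0.029). *Gm26542*, a gene on the opposite strand within *Maml1*, had 35.4 to 49.3 normalized counts in the libraries, and the strand setting of the counting was not given. In bulk tumor RNA, fewer cells of an expressing type and less RNA per cell cannot be told apart, for these genes and for those that follow.

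The 4 bHLH repressor genes encode the direct targets by which NOTCH shuts off other fates. *Heyl* and *Hey2* fell, while *Hes1* and *Hey1* did not pass the test. *Hes1*, on chromosome 16 (30064384 to 30067796), is the classical target in liver progenitors and bile ducts. It was at 3621 and 3844 normalized counts in Control and at 2919, 3774 and 2763 in *Prox1* OE. *Prox1* OE replicate 2 lay between the Control values and the other 2 below them. The log2 fold change of *Hes1* was -0.26 (SE 0.15, interval -0.62 to 0.10, adjusted p = 0.23). Scaled by total counts it was -0.69 (adjusted p = 0.016), a scaling under which the median of all genes was -0.45.

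*Hey1*, on chromosome 3 (8663359 to 8667256), is a target best known from endothelium. Its level was 732 and 794 in Control and 1125, 712 and 550 in *Prox1* OE. The *Prox1* OE libraries lay on both sides of the Control libraries, with replicate 1 highest. The log2 fold change of *Hey1* was -0.0036 (SE 0.28, interval -0.65 to 0.65, adjusted p = 0.99), and its sign turned with TMM factors (0.017) and upper-quartile factors (0.074) but not with total-count scaling (-0.43). The interval leaves room for a change of 0.65 in either direction.

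*Hey2*, on chromosome 10 (30832359 to 30842801), acts in arteries and the heart, and it had the lowest counts of the 10 genes. It was at 149.5 and 126.3 normalized counts in Control and at 92.0, 40.1 and 44.0 in *Prox1* OE. All *Prox1* OE values lay below both Control values, replicate 1 closest to them. *Hey2* fell by 1.32 on the log2 scale (SE 0.39, interval -2.23 to -0.41, adjusted p = 0.037), from 34 to 90 reads in the *Prox1* OE libraries against 149 and 182 in Control. *Heyl*, on chromosome 4 (123233556 to 123249875), is a target known from vascular smooth muscle and other contractile cells. Its level was 4479 and 4577 in Control and 2981, 1993 and 1442 in *Prox1* OE. The Control libraries differed little and every *Prox1* OE library stood below them. *Heyl* fell by 1.15 on the log2 scale (SE 0.27, interval -1.78 to -0.52, adjusted p = 0.017).

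Both feedback modulators fell. *Nrarp*, on chromosome 2 (25180758 to 25183339), encodes a small ankyrin repeat protein that NOTCH induces and that binds NICD and RBPJ to limit signaling. It was at 8351 and 10070 normalized counts in Control and at 5651, 3378 and 2230 in *Prox1* OE. No *Prox1* OE library reached a Control library, and replicate 1 was the highest of the 3. With all libraries kept, *Nrarp* had the largest decrease of the 10 genes, with a log2 fold change of -1.39 (SE 0.34, interval -2.19 to -0.60, adjusted p = 0.020). Only 3.69% of all genes tested had a lower log2 fold change. Its rank over *Hey2* (-1.32) was not resolved. Without Control replicate 2, *Hey2* was at -1.44 and *Nrarp* at -1.26, and without *Prox1* OE replicate 3 they were at -1.16 and -1.07. *Dtx1*, on chromosome 5 (120680202 to 120711927), encodes a Deltex ubiquitin ligase that binds NOTCH receptors. Its values were 938 and 982 in Control and 565, 526 and 264 in *Prox1* OE, without overlap and with replicate 3 lowest. *Dtx1* fell by 1.16 on the log2 scale (SE 0.32, interval -1.90 to -0.42, adjusted p = 0.028).

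The Fringe genes, whose enzymes add a sugar to NOTCH receptors and so alter which ligands they answer to, did not pass the test. *Lfng*, on chromosome 5 (140607320 to 140615545), was at 300 and 288 normalized counts in Control and at 483, 294 and 380 in *Prox1* OE. *Prox1* OE replicate 2 lay between the Control libraries and the other 2 above them. The log2 fold change of *Lfng* was 0.36 (SE 0.23, interval -0.17 to 0.89, adjusted p = 0.25), the only positive one of the 10, and scaling by total counts turned it to -0.07. *Mfng*, on chromosome 15 (78755882 to 78773475), was at 242 and 264 in Control and at 199, 302 and 238 in *Prox1* OE. The groups overlapped, with *Prox1* OE libraries on both sides. *Mfng* had a log2 fold change of -0.06 (SE 0.22, interval -0.57 to 0.46, adjusted p = 0.86), and 0.019 with upper-quartile factors.

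**Figure D2:**
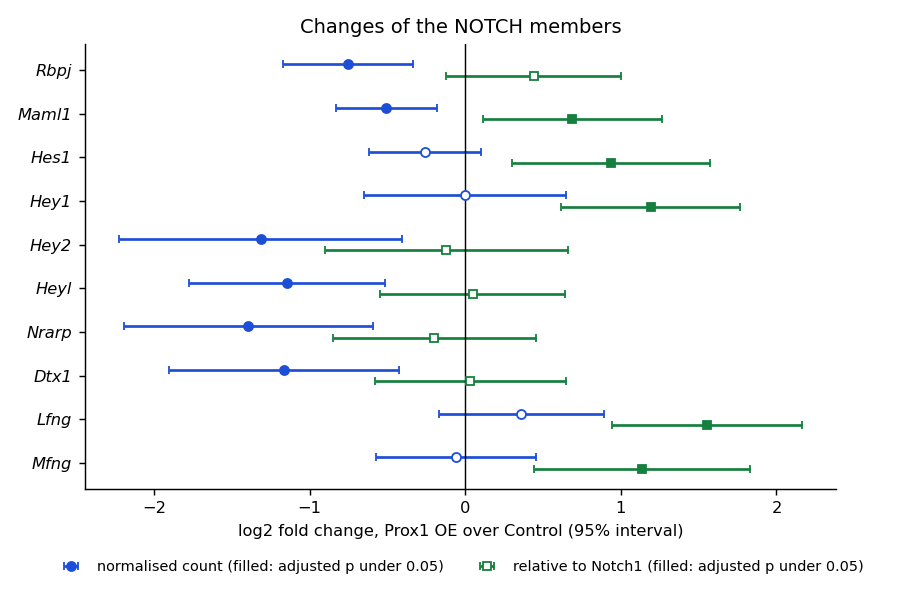
Log2 fold change of each NOTCH gene, *Prox1* OE over Control, with its 95% interval, on normalized counts (blue circles) and relative to *Notch1* in the same library (green squares). Filled symbols have an adjusted p under 0.05, which holds for 6 blue circles left of 0 and 5 green squares right of 0.

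The order of levels among the 10 genes was compared per kilobase of exon, counting every annotated exon base of a gene once. *Rbpj* had the longest such total (12750 bases, against 2505 for *Lfng*), so its place in the order depends on this way of counting. In Control, *Nrarp* was highest at a mean level of 3567 normalized counts per kb, followed by *Hes1* at 1832 and *Heyl* at 886. *Maml1* (245 per kb) and *Hey1* (234 per kb) came next, and their libraries overlapped. *Dtx1* (182), *Lfng* (117), *Rbpj* (102), *Mfng* (89.3) and *Hey2* (30.0) completed the order of Control levels per kb, each apart from the next in both libraries. In *Prox1* OE tumors the libraries overlapped between most neighbors. *Hes1* and *Nrarp* were then highest at mean levels of 1547 and 1454 per kb, with overlapping libraries, against Control levels in which *Nrarp* was clear of *Hes1*. *Heyl* (418 per kb), *Hey1* (244), *Maml1* (173) and *Lfng* (154) followed, neighbors in this run overlapping, and *Lfng* was clear of *Mfng*. *Mfng* (86.9), *Dtx1* (85.7) and *Rbpj* (61.1) overlapped in the same way, and *Hey2* was lowest and clear of *Rbpj*, at 12.8 per kb.

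Ratios of 2 genes within a library do not depend on its scaling, and 7 of them were tested with a two-sided exact permutation test that cannot go below p = 0.1 with 2 against 3 libraries. *Nrarp* over *Hes1* was 2.31 and 2.62 in Control and 0.807 to 1.94 in *Prox1* OE. The groups did not overlap, with a difference in the log2 ratio of -1.14 (exact p = 0.2, adjusted over the 7 ratios 0.35). *Heyl* over *Hes1* was 1.19 and 1.24 in Control and 0.522 to 1.02 in *Prox1* OE, again without overlap (log2 difference -0.89, exact p = 0.2, adjusted 0.35). *Hey1* over *Hes1* overlapped between the groups (log2 difference 0.25, exact p = 1), and without *Prox1* OE replicate 1 this difference was -0.08. *Lfng* over *Mfng* also overlapped (log2 difference 0.42, exact p = 0.5). That some genes fell more than others was therefore not shown by this test, which could not have passed a threshold of 0.05.

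*Notch1*, the gene whose intracellular domain drives these tumors, was lower in *Prox1* OE as well. The species and sequence of the NICD insert were not given in the sources used here, so the *Notch1* count may hold plasmid reads, endogenous reads or both, and the same holds for Akt. *Notch1* was at 13002 and 11967 normalized counts in Control and at 7027, 5094 and 4524 in *Prox1* OE. All *Prox1* OE values were below both Control values. *Notch1* fell by 1.19 on the log2 scale (SE 0.19, adjusted p = 0.0046). This change ranged from -1.38 to -1.06 with 1 library left out, and the call was not kept in every such fit. *Akt1*, chosen after its values were seen because the other plasmid carries Akt, fell by 1.05 on the log2 scale (SE 0.18, adjusted p = 0.0057). The *Akt1* change ranged from -1.13 to -0.91 with 1 library left out, and its call was not kept in every such fit either. Neither the *Notch1* nor the *Akt1* count is therefore a measure of the plasmids, whose share in the tumors was not tested. The values relative to *Notch1* that follow are relative to its count only.

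Each gene was next taken relative to *Notch1* in the same library. Since *Notch1* fell, this moved the median log2 difference over all genes to 1.18, with 75.1% of genes called higher and 1.21% lower. Against this background, 5 of the 10 genes were called higher relative to *Notch1* and 0 lower, with 0 lower at an unadjusted p under 0.05 also. *Nrarp*, *Hey2*, *Heyl* and *Dtx1* did not differ in change from *Notch1* beyond the spread between libraries, with log2 differences of -0.20 (interval -0.85 to 0.45), -0.12 (-0.90 to 0.66), 0.05 (-0.54 to 0.64) and 0.03 (-0.58 to 0.65) and adjusted p of 0.56, 0.77, 0.88 and 0.92. These intervals allow differences of up to 0.90 on the log2 scale. *Nrarp* stood at 64.2% and 84.1% of the *Notch1* count in Control and at 80.4%, 66.3% and 49.3% in *Prox1* OE, so the groups overlapped. *Heyl* stood at 34.4% and 38.2% in Control and at 42.4%, 39.1% and 31.9% in *Prox1* OE, with overlap.

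*Hes1*, *Hey1*, *Lfng*, *Mfng* and *Maml1* were higher relative to *Notch1*. *Hes1* rose from 27.8% and 32.1% of the *Notch1* count to 41.5%, 74.1% and 61.1% (log2 difference 0.94, adjusted p = 0.0095). *Hey1* rose from 5.63% and 6.64% to 16.0%, 14.0% and 12.2% (log2 difference 1.19, adjusted p = 0.00084). Both sets of *Prox1* OE values were clear of the Control values. The intervals of *Hes1* (0.30 to 1.57) and *Hey1* (0.61 to 1.77) held the 1.18 of the median gene. *Lfng* rose from 2.31% and 2.41% to 6.87%, 5.77% and 8.39% (log2 difference 1.55, adjusted p = 0.00013), and *Mfng* from 1.86% and 2.21% to 2.84%, 5.93% and 5.27% (1.14, adjusted p = 0.0048), and their intervals (0.95 to 2.16 and 0.44 to 1.83) held it too. *Maml1* had a log2 difference of 0.69 (adjusted p = 0.030) and *Rbpj* one of 0.44 (adjusted p = 0.14). The interval of *Maml1* (0.11 to 1.26) held the 1.18 of the median gene and that of *Rbpj* (-0.12 to 1.00) did not. By the exact permutation test on 3 of these ratios, the difference was p = 0.1 for *Hey1* over *Notch1*, 0.2 for *Hes1* over *Notch1* and 0.5 for *Nrarp* over *Notch1*.

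**Figure D3:**
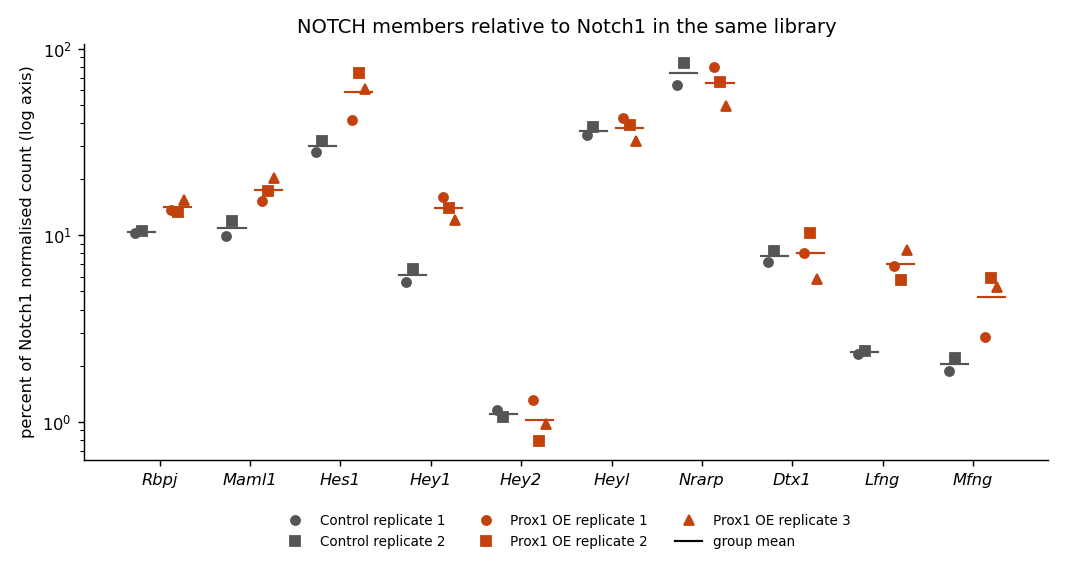
Each NOTCH gene as a percent of the *Notch1* normalized count in the same library (log axis), with Control in grey, *Prox1* OE in orange and a line at each group mean. *Rbpj*, *Maml1*, *Hes1*, *Hey1*, *Lfng* and *Mfng* lie wholly higher in *Prox1* OE, *Hey1* at 12.2% to 16.0%, while *Hey2*, *Heyl*, *Nrarp* and *Dtx1* overlap between the groups.

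Among the 3 *Prox1* OE libraries, replicate 1 had the highest *Prox1* and *Notch1* values and the highest value of all 6 genes that fell, and of 8 of the 10 genes. *Nrarp* in replicate 1 was 2.53 times its value in replicate 3, and *Prox1* was 5.84 times. No relation between these values was tested across 3 libraries.

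The wider pathway was read from a list of 63 other NOTCH genes, of which 58 had enough counts to be tested, 20 fell and 5 rose. These were 34.5% and 8.62% of those tested, beside 16.2% lower and 17.1% higher over all genes. Their median log2 fold change was -0.32, against -0.02 over all genes tested. Under total-count scaling the list had 35 lower and 2 higher calls, beside 6855 and 1472 over all genes. Leaving out Control replicate 1 left 2 lower and 1 higher, Control replicate 2 left 4 and 2, *Prox1* OE replicate 2 left 14 and 2, and *Prox1* OE replicate 3 left 16 and 3. The 5 genes not tested for low counts were *Dll3*, *Rbpjl*, *Hes2*, *Hes3* and *Ptcra*.

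Receptors and ligands had 5 lower calls among 8 genes. *Jag1*, the ligand needed for bile duct formation, was at 3450 and 3174 normalized counts in Control and at 1422, 918 and 833 in *Prox1* OE (log2 fold change -1.68, adjusted p = 0.0030), and the receptor genes *Notch2*, *Notch3* and *Notch4* fell by 0.72, 0.69 and 0.56 on the log2 scale. The ligand genes *Dll1*, *Dll4* and *Jag2* did not pass the test, with log2 fold changes of 0.33, -0.68 and 0.18. Of 5 other genes of the transcription complex, 3 fell, namely the Mastermind genes *Maml3* (-1.07) and *Maml2* (-0.86) and the acetyltransferase gene *Ep300* (-0.86). Corepressors, which keep RBPJ targets silent in the absence of NICD, had 6 lower calls among 10 genes. The largest of these decreases in log2 were *Ctbp2* (-1.01), *Tle3* (-0.74) and *Spen* (-0.68). The call of *Spen* was at the threshold, with an adjusted p of 0.048 in limma and 0.055 in edgeR. Among the calls of receptors and ligands, the transcription complex and corepressors, only that of *Jag1* was kept in every fit that left out 1 library. All decreases named in these roles kept their sign in those fits.

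The calls in the other direction were few and spread over roles. *Psen2*, which encodes a catalytic subunit of the gamma-secretase that frees NICD, was at 2799 and 3473 normalized counts in Control and at 9354, 9764 and 14904 in *Prox1* OE (log2 fold change 1.83, adjusted p = 0.0026). Within the same role of receptor cleavage, the protease gene *Adam10* fell by 0.63 and the gamma-secretase gene *Aph1b* by 0.52 on the log2 scale, and the other 7 of 10 genes were not called. The 2 lower and 1 higher calls among these 10 were near the share over all genes, and nothing is read from them as a group. *Hes6*, a HES family gene whose protein antagonizes HES1, was at 1563 and 1833 in Control and at 2616, 3089 and 3546 in *Prox1* OE (log2 fold change 0.85, adjusted p = 0.0072). The *Hes6* difference was 0.42 (adjusted p = 0.038) under total-count scaling, and its adjusted p was 0.085 without Control replicate 1. The Fringe gene *Rfng*, not one of the 10, rose by 0.54 (adjusted p = 0.018), but by 0.11 (adjusted p = 0.60) under total-count scaling. Its adjusted p was 0.17 without Control replicate 1, 0.095 without Control replicate 2 and 0.053 without *Prox1* OE replicate 2. The 4 other Deltex genes were not called, with log2 fold changes from -0.20 to 0.19. Among genes of turnover and trafficking, the ubiquitin ligase genes *Neurl1a* and *Mib2* had log2 fold changes of -1.14 and 0.37 (-0.065 for *Mib2* under total-count scaling), the other 5 of 7 were not called, and these calls too were near the share over all genes. Of 8 other genes that respond to NOTCH, *Sox9*, a bile duct regulator (-1.21), *Myc* (-0.74) and *Ccnd1* fell and *Snai2* rose (0.83, and 0.41 with an adjusted p of 0.19 under total-count scaling).

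**Figure D4:**
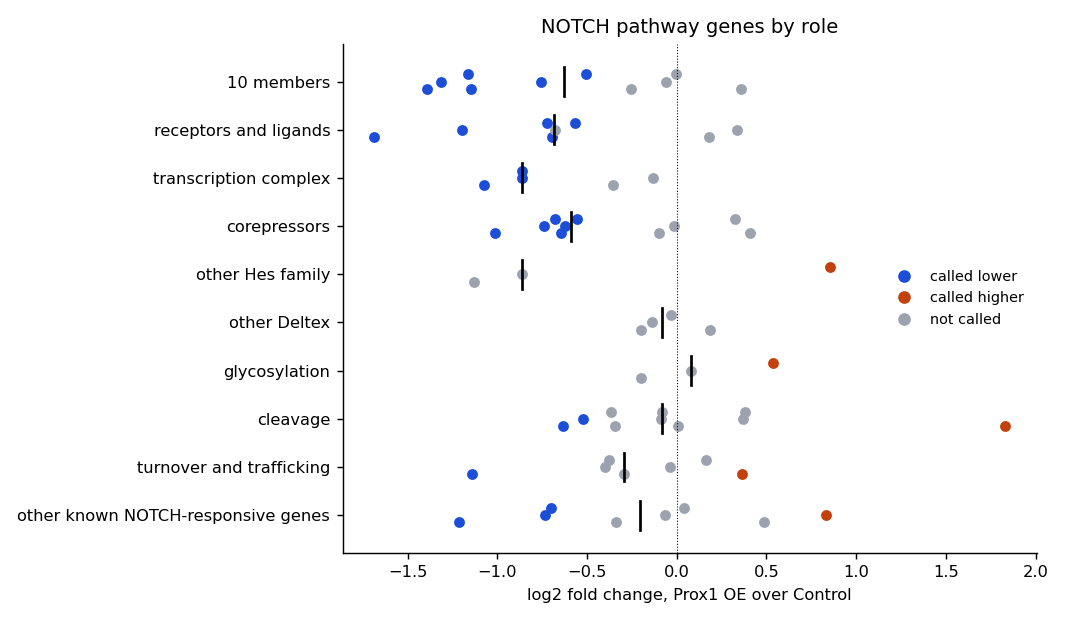
Log2 fold change, *Prox1* OE over Control, of the 10 genes and of 58 other NOTCH pathway genes by role, with a black bar at each median and color for genes called lower (blue), higher (orange) or not called (grey). Blue points outnumber orange ones among receptors and ligands (5 to 0), the transcription complex (3 to 0) and corepressors (6 to 0).

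Since several of the 10 genes are also used by cells other than tumor cells, markers of those cells were summed in each library. Mural cell markers (8 genes), the cells in which *Heyl* is known, summed to 53165 and 58926 normalized counts in Control and to 28781 to 35640 in *Prox1* OE, and 5 of 8 were called lower. *Rgs5* alone held 31073 and 30128 of the mural Control sums. Endothelial markers (10 genes), the cells in which *Hey1*, *Hey2* and *Nrarp* are also known, summed to 14283 and 17186 in Control and to 13366 to 17510 in *Prox1* OE, with 1 called higher and 1 lower. The mural sums did not overlap between the groups and the endothelial sums did. Lymphocyte markers (10 genes) summed to 248 and 315 in Control and to 582 to 687 in *Prox1* OE, with 6 of 9 tested called higher, and myeloid markers (8 genes) to 21547 and 24874 against 27455 to 44754, with 1 higher and 2 lower. *Lyz2*, which was not called, held 9021 and 13636 of these myeloid Control sums. With 1 library left out in turn, 1 of the 5 mural calls (*Acta2*), 1 of the 3 myeloid calls (*Cd14*) and 0 of the 2 endothelial and 0 of the 6 lymphocyte calls were kept in every fit. No marker of any list was at 0 in any library. The part of these cells, and of the bile duct and hepatocyte markers given above, in the changes of the NOTCH genes was not tested.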

How the data were processed

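Bulk RNA-seq was analyzed in 2 Control and 3 *Prox1* OE libraries of Akt/Notch tumors. The authors prepared libraries with the strand-preserving dUTP protocol, sequenced pairs of 100-base reads, mapped them to mm10 with STAR and divided counts by DESeq2 size factors. The counting tool and its strand setting are not given in the sources used here. The deposited signal per gene and library is this normalized count. All values (100%) were whole multiples of 1 read (0.822 to 1.18 normalized counts), within 0.001 of a read. A second deposited table holds the authors' own comparison (mean, log2 fold change, p-value and adjusted p-value) and was not used. No per-sample column was left unassigned (0).

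Log2(normalized count + 1) was tested with limma 3.58.1 in R 4.3.3 (lmFit, eBayes with trend, two-sided, no covariate, Benjamini-Hochberg adjustment), which understates changes of low genes. Ratios were tested by exact permutation of the absolute difference in means. Annotation came from GENCODE for GRCm38, which matched 55137 of 55397 identifiers (99.5%). The procedure was tested on simulated data. The members and all gene lists were chosen with earlier results of these data known, and 3 listed genes are not reported here. Besides the 10 members, *Prox1* and *Notch1*, the text named receptors and ligands and, in each pathway role, up to 3 genes with the largest change among those called. *Ccnd1* and *Akt1* were named after their values were seen. Alternatives were TMM, upper-quartile and total-count scaling, pseudocounts of 0.1 and 10, no filter or a mean of at least 50, no trend, count tests of the recovered reads by edgeR 4.0.16 and DESeq2 1.42.0, a replicate block, each library left out, and values relative to *Notch1*. With 1 library left in a group, it is assumed to vary like the other group. Read totals and per-read values cover counting error only.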

Additional observations from a re-analysis of the deposited data

How the results depend on the processing

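The count of members called lower was 6 with TMM and upper-quartile factors, both pseudocounts, a mean of at least 50, edgeR and DESeq2, 7 with the total count, 4 without a filter and 1 (*Rbpj*) without the trend. It ran from 0 to 6 with 1 library left out, where all 6 stayed negative, and the count called higher stayed at 0. Over all genes, leaving out 1 library gave 681 to 3738 higher and 477 to 3753 lower calls, and for the other pathway genes 1 to 7 higher and 2 to 24 lower. The pathway list had 3 higher calls without a filter. With the total count, 1472 genes were higher and 6855 lower over all genes, 2 and 35 in the pathway list. Relative to *Notch1*, 12837 genes were higher and 207 lower, 5 and 0 of the members (5 and 0 at an unadjusted p under 0.05) and 34 and 0 of the pathway list. The causes were not tested.

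Signs turned as follows. *Hey1* had log2 fold changes of 0.017 (TMM), 0.074 (upper quartile), 0.076 (edgeR) and 0.066 (DESeq2), and -0.29 to 0.23 with 1 library left out. *Mfng* was at 0.019 with upper-quartile factors and -0.21 to 0.084 with 1 library left out. *Jag2* ran from -0.049 to 0.41 with 1 library left out. With the total count *Lfng* was at -0.070, *Mib2* at -0.065, *Dll1* at -0.096 and *Jag2* at -0.25. The *Hey1* to *Hes1* log2 difference was -0.077 to 0.44 with 1 library left out. Relative to *Notch1*, signs turned for *Rbpj* (0.44), *Maml1* (0.69), *Hes1* (0.94), *Hey1* (1.19), *Heyl* (0.049), *Dtx1* (0.032), *Mfng* (1.14), *Adam10* (0.56), *Aph1b* (0.67), *Ctbp2* (0.18), *Tle3* (0.45), *Spen* (0.52), *Myc* (0.46), *Notch2* (0.47), *Notch3* (0.50), *Notch4* (0.63), *Maml3* (0.12), *Ep300* (0.33), *Maml2* (0.33), *Neurl1a* (0.051), *Dll4* (0.52), *Ccnd1* (0.49) and *Akt1* (0.15).

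The replicate block, which drops *Prox1* OE replicate 3, called 5 members lower (*Maml1* lost, adjusted p = 0.053) and 3 higher and 21 lower pathway genes, and *Hey1* was at 0.23. Deviations of same-numbered libraries correlated at 0.14 and 0.02 over 2 pairs, so the numbers were not taken to pair the libraries. Of the 160 member values under alternatives other than *Notch1*, 119 kept direction and side of the threshold, 28 lost the call, 1 gained it and 12 turned sign. Depth of 34 to 182 reads limits *Hey2*, and the 2 Control libraries limit every call.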
